A study of Mus musculus with 21 samples.

Results

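The comparison described here sets 3 single mouse epiblasts at embryonic day 6.0 (E6.0) against 3 at embryonic day 5.5 (E5.5). These 6 embryos were chosen by the columns of the deposited count table that carry their names, out of 21 samples in all, and the comparison ran over every expressed gene. The series also holds 3 epiblasts at E5.0, given beside the values below, and 12 samples of cultured pluripotent cells, which enter no test here. RNA was measured by sequencing of total RNA from each epiblast, collected one at a time with a PicoPure isolation kit and with no culture or treatment. Mouse strain, sex, litter and the way the epiblast was freed from its neighbours are not in the labels. The oldest group is E6.0 in the sample titles but 6.5 in a second label field, so its age is known only to that extent, and it is called E6.0 throughout.

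The epiblast is the pluripotent epithelium from which all tissues of the body arise. Around and after implantation it leaves the naive state of the blastocyst, methylates its genome with the Dnmt3 enzymes, and passes through a phase often called formative. Signals from neighbouring tissues, among them NODAL, WNT, BMP and FGF ligands, then prepare it for the primitive streak, the site where mesoderm and endoderm form.

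The E5.5 embryos had 9510145 to 11740260 counts each, and the E6.0 embryos 7847469 to 13006656. Embryos of the same stage correlated at 0.946 to 0.954 (E5.5) and 0.968 to 0.978 (E6.0), and embryos of the 2 stages at 0.932 to 0.943 (Pearson, log2 CPM across genes, which are not independent replicates). Levels are CPM, the usual depth-scaled count, on library totals adjusted by the TMM method. Epiblast markers were present in all 6 embryos: Pou5f1, the central pluripotency factor, ran from 529.8 to 656 CPM, and Otx2 from 99.5 to 125 CPM. Otx2 is also listed for anterior visceral endoderm. Of the other epiblast markers listed, Sox2, Dnmt3b and Nodal rose and Utf1 fell, as given below. Levels of markers of other tissues differed by list. Of 23 visceral endoderm markers, 2 (Apoa2 and Apoc2) had no count in any of the 6 embryos, Afp averaged 0.348 CPM at E5.5 and 0.243 CPM at E6.0, and the summed level was 384 to 427 CPM at E5.5 against 271 to 328 CPM at E6.0. Most of that sum was Lrp2, at 339, 323 and 363 CPM and then 292, 244 and 296 CPM, a gene that other epithelia express as well. The same markers summed to 784 to 1905 CPM at E5.0. The 15 extraembryonic ectoderm markers summed to 13 to 16.1 CPM at E5.5 and 7.1 to 15.1 CPM at E6.0. The 9 parietal endoderm markers summed to 283 to 302 CPM at E5.5 and 286 to 302 CPM at E6.0. By their Y-linked genes, embryos 1 and 2 at E5.5 and embryo 1 at E6.0 were male (1367 to 1602 summed counts), and the others female (2 to 7).

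From E5.5 to E6.0, 631 of 14228 genes tested changed (4.43%). Calls rest on the two-sided quasi-likelihood test of edgeR, with a Benjamini-Hochberg adjusted p below 0.05 over all genes tested. The 269 genes that rose (1.89%) did so mostly by small amounts, and the 362 that fell (2.54%) by more. A change of at least 4-fold was seen for 23 of the rising and 139 of the falling genes, and one of at least 8-fold for 10 and 71. The median log2 fold change, E6.0 minus E5.5, was 0.79 among the genes called higher and -1.53 among those called lower, against -0.02 over all genes tested. In all 631 called genes the 3 E6.0 embryos lay wholly above or wholly below the 3 E5.5 embryos, but so they did in 30.9% of all genes tested (2191 above and 2202 below), so that a lack of overlap is common and is given below as a description only. The E5.0 embryos share the estimate of the spread in this fit. When the 6 embryos were fitted alone, 1445 genes were called, 744 higher and 701 lower. With 1 embryo left out, the count fell to as few as 238, without E6.0 embryo 2. As each sample is a whole epiblast, fewer cells of a kind and less RNA in each cell cannot be told apart.

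**Figure D1:**
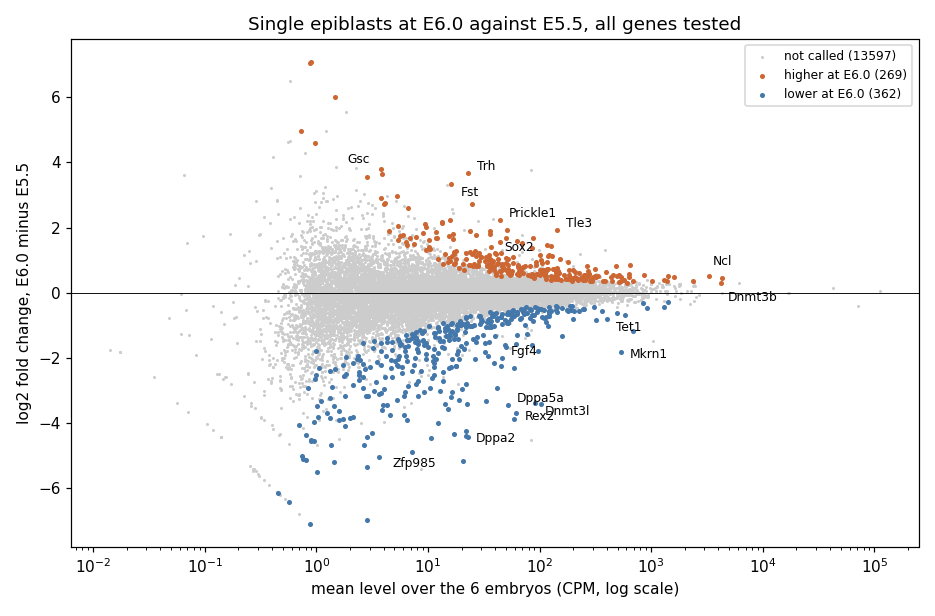
Mean level over the 6 embryos (CPM, log axis) against the log2 fold change, E6.0 minus E5.5, with 1 point for each gene tested. Orange points are the 269 genes called higher at E6.0, blue points the 362 called lower and grey points the rest; the blue points reach further from 0 than the orange ones at like levels, with Dppa2 at -4.39 and Trh at 3.66 among those labelled.

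Among the deepest falls were genes known from pluripotent cells and the germline. Dppa2 (ENSMUSG00000072419, chromosome 16), a chromatin protein of pluripotent cells, was at 38.3, 48.6 and 39.2 CPM in E5.5 embryos 1, 2 and 3 and at 2.16, 1.64 and 2.24 CPM in the E6.0 embryos. Its log2 fold change was -4.39 ± 0.22 (SE, adjusted p 1.09e-07). Dppa4, the partner with which Dppa2 forms a dimer and its neighbour on chromosome 16, went from 90.2, 71.4 and 60.5 CPM to 13.8, 14.6 and 18.6 CPM, a log2 fold change of -2.24 ± 0.18 (adjusted p 8.03e-06). In both genes every E6.0 embryo was far below every E5.5 embryo. Dppa5a (ENSMUSG00000060461, chromosome 9), an RNA-binding protein of early embryos, gave the smallest p of these genes: its level was 93.0, 100.1 and 92.7 CPM at E5.5 and 8.03, 8.69 and 9.63 CPM at E6.0 (-3.43 ± 0.13, adjusted p 3.92e-09). Embryos of a stage hardly differed in Dppa5a. Piwil2, which binds small RNAs against transposons in the germline, fell from 26.7, 27.1 and 33.0 CPM to 3.24, 1.88 and 5.54 CPM. Dazl, a germ cell RNA-binding protein, was lower throughout, at 9.05, 13.4 and 6.34 CPM and then 0.959, 0.783 and 1.17 CPM (-3.29 ± 0.57, adjusted p 0.00479).

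Dnmt3l (ENSMUSG00000000730, chromosome 10), the inactive cofactor of the de novo DNA methyltransferases, stood at 101, 211 and 189 CPM at E5.5 and 8.99, 14.5 and 24.6 CPM at E6.0, a log2 fold change of -3.37 ± 0.43 (adjusted p 0.00702). The groups did not overlap, but E5.5 embryo 1 was well below the other two of its stage. Without E6.0 embryo 2 the call was lost by a narrow margin (adjusted p 0.0557). Aire, a transcriptional regulator best known from the thymus, fell the most of the genes named by size, from 17.3, 24.2 and 20.1 CPM to 1.20, 1.33 and 0.194 CPM (-4.47 ± 0.39, adjusted p 1.67e-05). Aire and Dnmt3l lie on opposite strands of chromosome 10 and their gene bodies overlap by 1664 bases in GENCODE M21. Whether the counting used strand is not given in the sources used here, so reads of the overlap cannot be assigned and the fall of Aire is uncertain.

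The other genes with the largest falls have varied roles. Arhgef3, a guanine nucleotide exchange factor, went from 23.2, 42.5 and 31.3 CPM to 1.32, 1.33 and 2.14 CPM. Inpp5d, a lipid phosphatase, was at 12.2, 8.77 and 15.2 CPM and then 0.839, 0.626 and 0.972 CPM. Pnma5, an X-linked gene of the retroelement-derived Pnma family, fell from 22.8, 28.8 and 17.8 CPM to 1.56, 1.02 and 1.85 CPM. In these 3 genes no E6.0 embryo came near the range of the E5.5 embryos. Slc23a1 (a vitamin C transporter), Mtus2 and Hapln4 fell with log2 fold changes of -3.16, -3.15 and -2.92. Pla2g1b, a secreted phospholipase, fell from 17.2, 27.8 and 23.7 CPM to 2.28, 2.82 and 3.40 CPM. Slc23a1 overlaps Paip2 on the opposite strand by 2584 bases, so part of its reads cannot be assigned either. Other genes named here with an opposite-strand overlap, of 68 to 1620 bases, were Mest, Ddit3, Hnrnpk, Grhl2, Srebf1, Ccnd3, Tap1, Mkrn1, Ftl1, Pou5f1, Evx1, Lef1 and Gas5. At or above the size of the 12th gene of this ranking, 17 more falling genes were passed over, as clone-named genes, pseudogenes or members of multigene families.

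**Figure D2:**
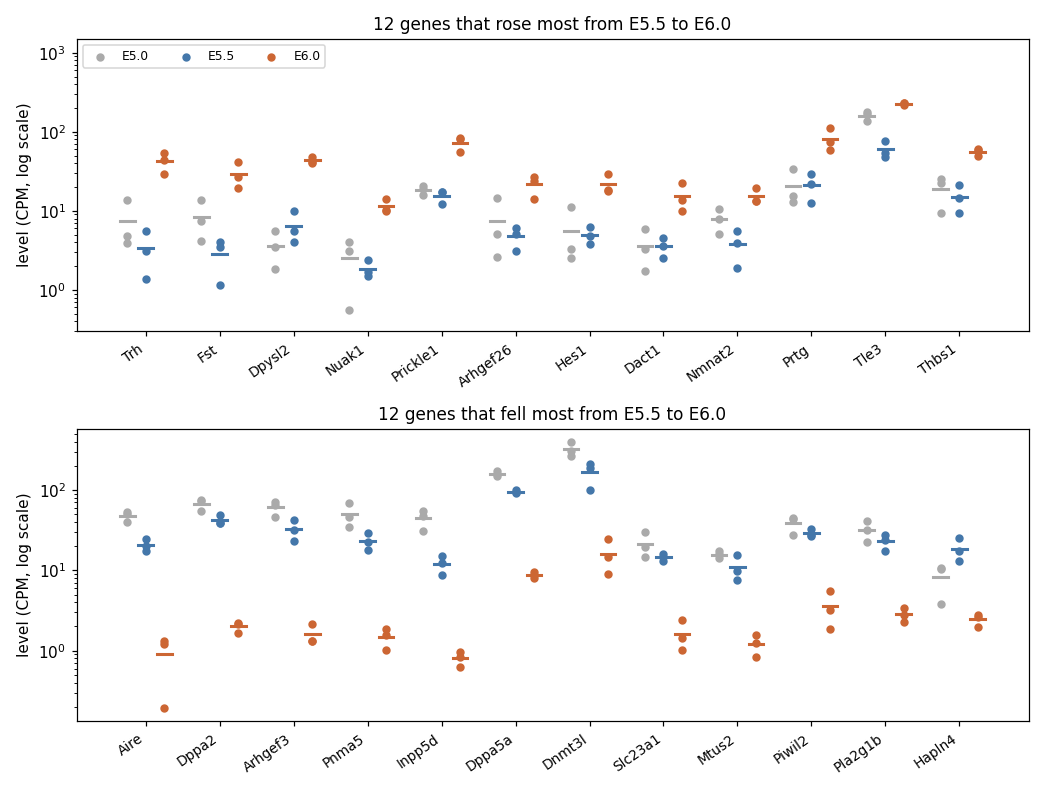
Level in each embryo (CPM, log axis) of the 12 rising and 12 falling genes with the largest change, points for embryos and bars for the mean of 3 at E5.0 (grey), E5.5 (blue) and E6.0 (orange). The rule that chose these 24 genes required the 2 stages not to overlap; Aire fell the most of them and Trh rose the most.

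Among the genes that rose most were a hormone precursor and a secreted antagonist. Trh (ENSMUSG00000005892, chromosome 6), the precursor of thyrotropin-releasing hormone, was at 5.62, 1.36 and 3.13 CPM in the E5.5 embryos and 29.4, 54.4 and 44.1 CPM at E6.0, a log2 fold change of 3.66 ± 0.58 (adjusted p 0.00742). Fst (ENSMUSG00000021765, chromosome 13) encodes follistatin, a secreted protein that binds activins and some BMPs. Its level went from 1.14, 3.45 and 4.06 CPM to 26.5, 42.0 and 19.6 CPM (3.33 ± 0.51, adjusted p 0.00314). The lowest E6.0 embryo was far above the highest at E5.5. With embryo number as a block the adjusted p of Fst was 0.0547. Prickle1, of the planar cell polarity pathway, rose from 12.4, 17.3 and 17.2 CPM to 80.0, 82.5 and 56.1 CPM (2.22 ± 0.21, adjusted p 2.6e-05). Tle3, a Groucho-type corepressor, rose from 77.2, 54.7 and 48.3 CPM to 233, 217 and 231 CPM (1.92 ± 0.16, adjusted p 1.05e-05). These 2 were the most evenly raised of the group. Dpysl2, a cytoskeletal regulator known from growing axons, was at 9.99, 4.07 and 5.49 CPM and then 41.7, 48.0 and 40.7 CPM. Thbs1 (thrombospondin, a matrix protein) went from 14.5, 9.29 and 21.5 CPM to 58.0, 61.0 and 49.98 CPM, and lost its call without E5.5 embryo 1 (adjusted p 0.0642).

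Hes1, a target and effector of Notch signalling, was at 6.24, 3.86 and 4.82 CPM at E5.5 and at 17.7, 29.4 and 18.3 CPM at E6.0. Dact1, which binds Dishevelled in WNT signalling, was at 3.64, 4.49 and 2.54 CPM and then 13.9, 22.4 and 9.82 CPM. Nuak1, Arhgef26, Nmnat2 and Prtg completed the 12, with log2 fold changes of 2.62, 2.18, 2.03 and 1.94. These 6 were less secure: each lost its call in at least 1 fit with an embryo left out. Without E6.0 embryo 2 the adjusted p was 0.106 for Hes1, 0.123 for Dact1, 0.0851 for Nuak1 and 0.0674 for Nmnat2. For Arhgef26 it reached 0.129 without E5.5 embryo 3, and for Prtg 0.151 without E5.5 embryo 2. Prtg also lost its call with no filter on low counts (adjusted p 0.0858).

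Among the most abundant genes that changed, the rises were small. Dnmt3b (ENSMUSG00000027478, chromosome 2), the main de novo methyltransferase of the epiblast, rose from 3636, 3959.9 and 3815 CPM to 4135, 4813 and 5225 CPM (0.31 ± 0.08, adjusted p 0.0412), and its call was lost in 5 of 9 fits with an embryo left out, with an adjusted p of up to 0.179 without E6.0 embryo 3. The nucleolar protein Ncl was at 3548, 3881 and 3498 CPM and then 4817, 5194 and 5107 CPM, and the elongation factor Eef1a1 at 2387, 2693 and 2981 CPM and then 3847, 3845 and 3891 CPM. Ncl lost its call in 2 of 9 fits (up to 0.056, without E6.0 embryo 2), and Eef1a1 has processed copies with which reads may be shared. Ptma, Eif3a, Actg1, Nasp, Myh9, Hnrnpk and Anp32b, also among the 10 most abundant, had log2 fold changes of 0.36 (Ptma and Nasp) to 0.53 (Anp32b). Of these 7 only Eif3a kept its call with any 1 embryo left out. The adjusted p reached 0.117 for Hnrnpk, 0.107 for Nasp, 0.0893 for Actg1 and 0.0533 for Anp32b (without E6.0 embryo 2), and 0.147 for Ptma and 0.108 for Myh9 (without E6.0 embryo 3). On the falling side, the ubiquitin ligase Mkrn1 went from 782, 783 and 929 CPM to 194, 239 and 272 CPM (-1.82 ± 0.12, adjusted p 1.1e-06). Tet1, which oxidises methylated cytosine, fell from 602, 474 and 464 CPM to 291, 280.2 and 315 CPM. Hells, a remodeller needed for DNA methylation, fell from 673, 757 and 717 CPM to 494, 424 and 419 CPM, and L1td1, an RNA-binding protein derived from a LINE-1 element, from 541, 628 and 638 CPM to 408, 348 and 422 CPM. The ferritin gene Ftl1 had a log2 fold change of -0.55.

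A block of zinc finger genes on chromosome 4 fell together. Clusters of this type encode KRAB zinc finger proteins, which bind DNA and recruit the corepressor Trim28, chiefly at retroelements. In the stretch from Zfp990 to Zfp933 (chr4:145510759-147848366, GRCm38, which is mm10), 22 protein-coding genes were tested, of which 13 fell, none rose and 9 were not called. The background for falling genes is 2.54%, but the block was picked out after its values were seen, so its count is a description only. The median log2 fold change of the 22 genes was -2.89, against -0.02 over all genes tested. Their summed level was 1290 CPM, 967 CPM and 907 CPM in the E5.5 embryos and 289 CPM, 252 CPM and 189 CPM in the E6.0 embryos, after 1424 to 2008 CPM at E5.0.

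Zfp985 fell the most of them, from 58.3, 33.0 and 27.7 CPM to 1.32, 0.783 and 1.26 CPM (-5.16 ± 0.37, adjusted p 8.03e-06). Zfp980, the most abundant at E5.5, went from 224, 165 and 175 CPM to 16.5, 11.8 and 24.3 CPM (-3.43 ± 0.28, adjusted p 0.000154). Rex2 was at 140.1, 96.8 and 105 CPM and then 8.27, 7.67 and 10.4 CPM, and Zfp600 at 148, 78.8 and 102 CPM and then 7.08, 6.58 and 8.95 CPM. In those 4 genes no E6.0 embryo came near the lowest E5.5 embryo. Zfp981, Zfp986, Zfp978 and Zfp989 had log2 fold changes of -4.23, -3.40, -3.57 and -3.19, and Zfp534, Zfp988 and Zfp987 of -3.28, -2.94 and -2.14. Gm21411, also in the block, had -2.87. Zfp979 (-2.91) lost its call in 7 of 9 fits with an embryo left out (adjusted p up to 0.135, without E6.0 embryo 2), and Zfp981 without E6.0 embryo 2 (adjusted p 0.0572). Zfp982, in the midst of the block, was at 24.2, 23.8 and 16.3 CPM and then 26.0, 23.4 and 25.7 CPM (0.22 ± 0.20, adjusted p 0.619). These genes are near copies of each other, and how the counting treated reads that match several of them is not given in the sources used here, so single values are uncertain and the members are not independent.

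The promoter sequences of the block are shown because 9 of its genes share 2 stretches to the letter. RefSeq (GRCm38.p6) promoters, 250 bases before and 50 after each start, were matched for 14 of the 22 genes. Among promoters of the genes that fell, the longest runs that 8 genes hold to the letter are 21 bases long, and there are 2 of them, AAGAACTGGGAAGCTAATTAA and AGGAGTGGCTCTGAGGAACCA. Searched on both strands, each occurs in 9 of 32851 promoter entries (0.0274%). The same 9 genes hold both, all of them in this block. Of the 9 genes, 8 fell (Zfp980, Zfp987, Zfp600, Rex2, Zfp988, Zfp985, Zfp979 and Zfp534) and 1 was not called (Zfp982). Zfp600 has 2 promoter entries and Zfp982 has 3, in each case 1 of them with the runs. The runs were sought among genes that fell, so the split of falls between genes with and without them is fixed in large part by the choice. Of the 5 matched genes without the runs, 1 fell (Zfp981) and 4 were not called (Zfp993, Zfp984, Zfp933 and Gm13212). The bases from 160 to 21 before the start follow for 4 genes that fell and for Zfp982, all on the plus strand, with the shared runs in capitals.
Zfp980, chr4:145670537-145670676: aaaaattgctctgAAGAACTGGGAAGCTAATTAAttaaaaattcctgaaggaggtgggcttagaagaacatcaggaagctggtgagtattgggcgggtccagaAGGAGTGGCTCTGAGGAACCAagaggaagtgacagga
Zfp600, chr4:146156667-146156806: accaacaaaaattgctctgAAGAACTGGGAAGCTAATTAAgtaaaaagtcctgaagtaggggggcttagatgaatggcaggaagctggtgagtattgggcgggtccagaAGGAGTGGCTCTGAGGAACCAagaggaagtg
Rex2, chr4:147021690-147021829: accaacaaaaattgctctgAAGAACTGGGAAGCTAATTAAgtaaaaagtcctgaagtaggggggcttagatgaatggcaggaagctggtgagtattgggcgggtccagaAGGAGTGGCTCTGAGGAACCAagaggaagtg
Zfp985, chr4:147553117-147553256: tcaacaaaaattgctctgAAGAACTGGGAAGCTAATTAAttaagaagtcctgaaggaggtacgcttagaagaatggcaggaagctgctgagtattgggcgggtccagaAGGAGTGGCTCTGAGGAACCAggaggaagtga
Zfp982, chr4:147492257-147492396: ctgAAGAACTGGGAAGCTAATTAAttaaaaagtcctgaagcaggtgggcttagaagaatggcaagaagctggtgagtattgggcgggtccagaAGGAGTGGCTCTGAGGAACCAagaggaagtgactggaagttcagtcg
Over the 60 bases ahead of the second run, Zfp600 and Rex2 were identical, and every other pair of the 4 genes that fell matched at 90% of positions. Zfp982, not called, matched each of the 4 at 91.7% to 93.3%. A match in letters is a description, and no factor was assigned to it.

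**Figure D3:**
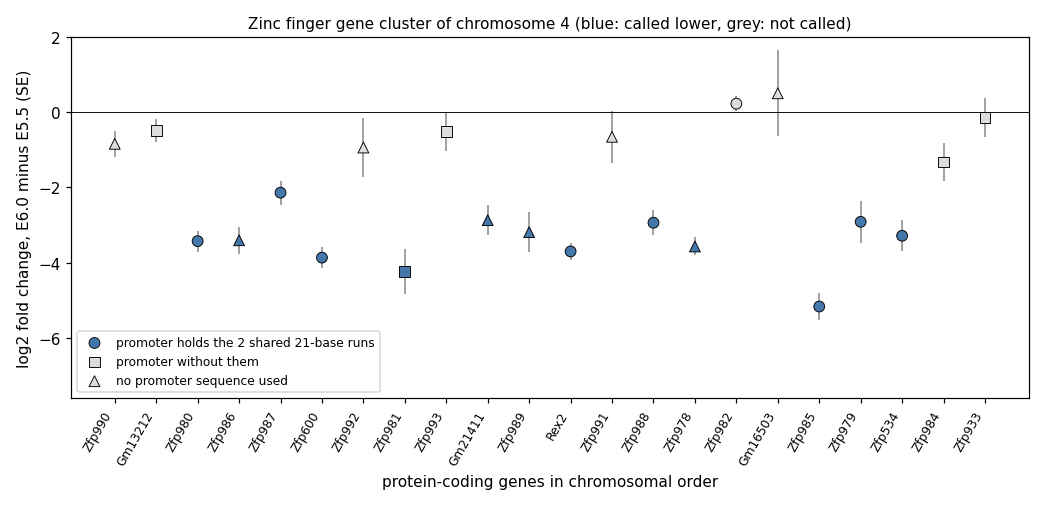
Log2 fold change, E6.0 minus E5.5, with its SE, for the 22 protein-coding genes tested in the zinc finger block of chromosome 4, in chromosomal order. Blue symbols are the 13 genes called lower and grey symbols the 9 not called; circles mark the 9 genes with the 2 shared 21-base runs in a promoter, squares the 5 without them and triangles the 8 with no promoter sequence used.

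Of the 12 general pluripotency genes, all tested, 3 rose (1.89% of all genes tested did), 3 fell (2.54% of all) and 6 were not called, with a median log2 fold change of 0.12 (0.07 to 0.17 over the alternatives). Pou5f1 was at 568, 529.8 and 578 CPM and 569, 582 and 656 CPM (0.11 ± 0.08, adjusted p 0.559). Sox2, its partner on DNA, went from 25.6, 28.2 and 35.2 CPM to 45.9, 54.3 and 66.7 CPM (0.91 ± 0.20, adjusted p 0.0199), with an adjusted p of up to 0.109 when an embryo was left out (E6.0 embryo 3). The RNA-binding proteins Lin28a and Lin28b, which block let-7 miRNA maturation, rose with log2 fold changes of 0.41 and 0.72. Lin28a had an adjusted p of up to 0.107 without E6.0 embryo 2, and Lin28b kept its call in all 9 fits with an embryo left out. Beside Dppa2 and Dppa4, Utf1 fell, from 223, 242 and 256 CPM to 142, 143 and 205 CPM (-0.56 ± 0.14, adjusted p 0.0361, and 0.195 without E6.0 embryo 2). Nanog was at 6.03, 6.06 and 14.2 CPM and then 33.7, 40.3 and 26.1 CPM. The 2 stages did not overlap in Nanog, as in 30.9% of all genes tested, and it was not called (1.92 ± 0.63, adjusted p 0.142), and in the fit of the 6 embryos alone its adjusted p was 0.00625.

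Naive pluripotency genes were mostly low at both stages, Fgf4 aside. Of 15 listed, 11 were tested, and 2 fell, beside 2.54% of all genes tested, while none rose. Of the 11, 5 had a positive log2 fold change and 6 a negative one, beside 6792 positive of all 14228 genes tested. Zfp42 (Rex1), a classical naive marker, went from 10.8, 7.203 and 13.8 CPM to 1.44, 2.51 and 3.50 CPM (-2.08 ± 0.37, adjusted p 0.00585). Fgf4, the FGF ligand of the early epiblast, went from 62.6, 73.6 and 83.2 CPM to 15.8, 15.3 and 24.2 CPM (-1.99 ± 0.18, adjusted p 2.4e-05). The summed level of the list was 104 to 122 CPM at E5.5 and 42.6 to 51.9 CPM at E6.0, with Fgf4 the greater part at E5.5. The list's median log2 fold change was -0.70, and it ranged over the alternatives from -1.74 to -0.11.

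Of 15 formative and early postimplantation genes, all tested, 3 were called, against 4.43% of all genes tested: Dnmt3b rose, Dnmt3l and Grhl2 fell, and 12 were not called. Grhl2, a factor of epithelial genes, went from 81.4, 114 and 83.6 CPM to 64.0, 54.4 and 64.1 CPM (-0.61 ± 0.14, adjusted p 0.0233, and 0.139 without E6.0 embryo 2). Otx2 had values of 107, 123 and 113 CPM and 99.5, 120.2 and 125 CPM. Fgf5 was at 51.3, 66.5 and 70.5 CPM and 85.9, 95.5 and 87.9 CPM (0.52 ± 0.15, adjusted p 0.0741). The E5.5 and E6.0 embryos did not overlap in Fgf5, as in 30.9% of all genes tested. It passed the threshold in the fit of the 6 embryos alone (adjusted p 0.0249), with the DESeq2 Wald test (0.036), with no filter on low counts (0.00998) and with embryo number as a block (0.0429).

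Genes of the primitive streak differed widely between the E6.0 embryos. Of 17 listed, 9 passed the filter on low counts, and 2 of the 9 rose, beside 1.89% of all genes tested: Gsc, a homeobox gene of the anterior streak, and Snai1, a repressor of E-cadherin. Gsc went from 0.208, 0.522 and 0.761 CPM to 5.76, 9.87 and 5.83 CPM (3.79 ± 0.57, adjusted p 0.00163). Snai1 went from 1.46, 1.04 and 0.676 CPM to 6.96, 8.61 and 5.83 CPM (2.75 ± 0.52, adjusted p 0.00781). Without E6.0 embryo 2 the adjusted p was 0.0213 for Gsc and 0.0566 for Snai1. That embryo was the highest of the 9 in Eomes, Foxa2, Fgf8, Evx1, Wnt3, Mixl1, Gsc, Snai1 and T. T (Brachyury), the classical streak gene, did not pass the filter and was at 0.832, 0.313 and 0.254 CPM at E5.5 and at 2.998, 12.8 and 0.292 CPM at E6.0. Mixl1 was at 0.312, 0.104 and 1.18 CPM and 0.600, 9.24 and 0.194 CPM. Its log2 fold change of 2.60 turned to -0.47 without E6.0 embryo 2, and its adjusted p was 0.296 with it (0.0113 with no filter on low counts). Eomes was at 34.5, 17.3 and 41.2 CPM and 89.7, 169 and 63.6 CPM (1.79 ± 0.47, adjusted p 0.0891), and was not called, though the 2 stages did not overlap, as in 30.9% of all genes tested. The DESeq2 Wald test called it (0.00556). Foxa2 was at 1.46, 1.46 and 0.0845 CPM and 5.04, 15.7 and 2.24 CPM (2.96 ± 0.85, adjusted p 0.0791). Foxa2 was not called by this fit, but was by the DESeq2 Wald test (0.00339), with no filter on low counts (2.03e-06) and with embryo number as a block (0.0217). Of the 9 tested genes 8 had a positive log2 fold change, beside 6792 of all 14228, with a median of 2.60, or 1.73 without E6.0 embryo 2. A gene low at E5.5 could pass the filter through its E6.0 embryos, so this tally is a description only. Of the genes that did not pass, Tbx6, Kdr and Hes7 averaged lower at E6.0, and T, Mesp1 and Mesp2 higher. Summed over the list, the E6.0 embryos had 157 CPM, 320 CPM and 112 CPM against 25.2 to 66.5 CPM at E5.5, and the E5.0 embryos had 106 to 154 CPM. Anterior visceral endoderm also expresses Gsc and Foxa2. The 9 genes listed for it, which include Otx2, summed to 117 to 132 CPM at E5.5 and 122 to 155 CPM at E6.0. Most of each sum was Otx2. The rest of the sum, which holds Gsc and Foxa2, was larger in each E6.0 embryo than in any E5.5 embryo. Of the 7 tested genes of this list 5 had a positive log2 fold change, Gsc rose (1.89% of all genes tested did) and Sfrp5 fell (2.54% of all). Its members Cer1 and Dkk1 were not tested and averaged 0.245 and 0.167 CPM at E5.5 and 0.197 and 0.356 CPM at E6.0. The part of that tissue in the rise of Gsc was not tested.

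**Figure D4:**
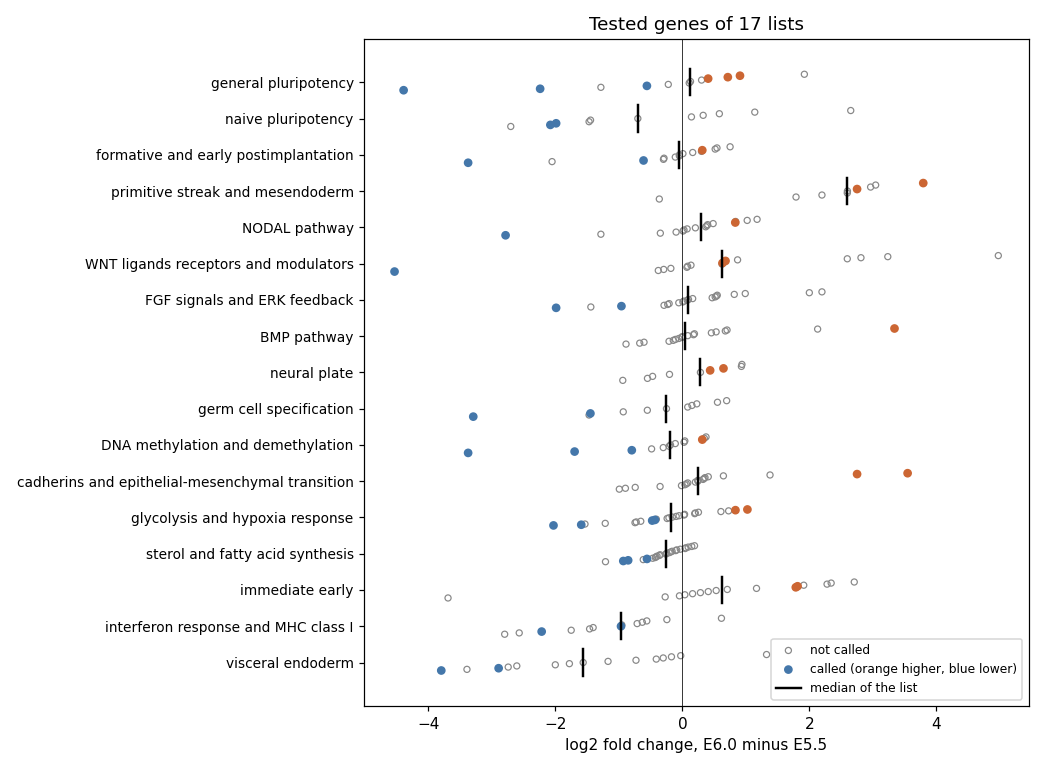
Log2 fold change, E6.0 minus E5.5, of each tested gene in 17 lists, filled where called (orange higher, blue lower) and open where not, with the list's median as a black bar. The streak list has its median at 2.60 with 2 genes called of 9 tested, and the visceral endoderm list at -1.56 with 2 called of 15.

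In the NODAL pathway 16 of 19 genes were tested, and 1 rose and 1 fell, beside 1.89% and 2.54% of all genes tested. The ligand Nodal went from 17.3, 14.6 and 25.9 CPM to 35.5, 38.9 and 28.8 CPM (0.83 ± 0.22, adjusted p 0.0498), at the edge of the threshold: its call was lost in 6 of 9 fits with an embryo left out (up to 0.225, without E6.0 embryo 2), under the embryo number as a block (0.0644) and with sex as a covariate (0.0579). Gdf3, a related ligand that can pair with NODAL, fell from 11.3, 15.03 and 14.1 CPM to 2.16, 1.41 and 2.33 CPM (-2.78 ± 0.30, adjusted p 9.1e-05). All 3 E6.0 embryos were well below all 3 E5.5 embryos in Gdf3. The co-receptor Tdgf1 varied widely, at 57.2, 126 and 157 CPM and 32.4, 66.7 and 40.4 CPM (adjusted p 0.215). In the WNT group 16 of 23 ligands, receptors and modulators were tested, of which 3 were called, beside 4.43% of all genes tested. The receptors Fzd2 and Fzd7 rose, with log2 fold changes of 0.68 and 0.63. Their adjusted p reached 0.146 for Fzd2 (without E6.0 embryo 2) and 0.103 for Fzd7 (without E6.0 embryo 3). Sfrp5, a secreted WNT antagonist of visceral endoderm, was at 2.71, 1.57 and 1.18 CPM and then at 3 counts or fewer in every E6.0 embryo, at least 6.15-fold lower (adjusted p 0.0204, and 0.111 without E6.0 embryo 2). Of 10 tested WNT feedback targets and TCF factors, edgeR called none, with 2 at an unadjusted p below 0.05, 1 called by the DESeq2 Wald test and 1 in the 6 embryos alone.

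FGF signalling genes gave 2 falls in 20 tested, Fgf4 and Spry4, where 2.54% of all genes tested fell. Spry4, a feedback inhibitor of the ERK pathway, went from 57.2, 58.9 and 65.3 CPM to 27.7, 36.3 and 29.1 CPM (-0.96 ± 0.18, adjusted p 0.00822, and 0.0531 without E6.0 embryo 1). Fgf8, a ligand of the streak, was at 10.2, 2.19 and 17.4 CPM and 36.5, 71.3 and 30.0 CPM (adjusted p 0.136, and 0.0346 by the DESeq2 Wald test). Among 18 tested BMP pathway genes Fst alone was called, a share close to the 4.43% of all genes tested. By edgeR none of 12 tested retinoic acid genes was called (3 at an unadjusted p below 0.05, 1 by the DESeq2 Wald test, 1 in the 6 embryos alone). None of 10 LIF and STAT3 genes was called (4, 0 and 2 by the same 3 measures). Of 12 Hox and Cdx genes listed, none passed the filter on low counts.

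In the DNA methylation group, 1 of 13 rose (Dnmt3b) and 3 fell (Dnmt3l, Tet1 and Zfp57), against 1.89% and 2.54% of all genes tested. Tet1 had a log2 fold change of -0.80 ± 0.10 (adjusted p 0.000511). Zfp57, which guards methylation at imprinted regions, went from 22.3, 19.7 and 21.7 CPM to 6.72, 5.56 and 7.39 CPM (-1.70 ± 0.27, adjusted p 0.00233). Tet1 and Zfp57 kept their calls with any 1 embryo left out. Of 23 Polycomb and Trithorax genes Kmt2b alone was called (-0.41, adjusted p 0.0417, 0.227 without E6.0 embryo 2 and 0.06 with embryo number as a block), a share near the 4.43% called of all genes tested. Among 21 tested imprinted genes Mest and Snrpn rose, beside 1.89% of all genes tested. Mest, expressed from the paternal allele, went from 29.4, 42.5 and 21.5 CPM to 66.0, 108 and 106 CPM (1.59 ± 0.26, adjusted p 0.00664). Snrpn had a log2 fold change of 0.54 and an adjusted p of up to 0.119 (without E6.0 embryo 3).

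Germ cell genes had 2 falls in 11 tested, against 2.54% of all genes tested. These were Dazl and Ifitm3, the latter a membrane protein of early germ cells, at 8.43, 9.71 and 11.5 CPM and then 3.84, 3.05 and 3.99 CPM (adjusted p 0.0166, and 0.105 without E6.0 embryo 2). Neural plate genes had 2 rises in 9 tested, against 1.89% of all genes tested. Nes (nestin) and Sox11 rose with log2 fold changes of 0.65 and 0.44, while Sox1 averaged 1.01 CPM and then 0.521 CPM, and Pax6 0.725 CPM and then 1.38 CPM, neither called. The calls of both were fragile, with adjusted p of up to 0.191 for Nes (without E5.5 embryo 2) and 0.238 for Sox11 (without E6.0 embryo 2). The guidance receptor Robo1 rose from 45.0, 39.8 and 22.5 CPM to 114, 101 and 95.1 CPM (1.53 ± 0.30, adjusted p 0.0152, and 0.0565 without E5.5 embryo 2), the sole call in 20 tested guidance genes, a share near the 4.43% of all genes tested.

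Among 19 tested cadherin and epithelial-mesenchymal transition genes, Snai1 and Zeb2 rose, where 1.89% of all genes tested did. Zeb2, a repressor of epithelial genes, went from 0.208, 0.418 and 0.676 CPM to 6.72, 5.48 and 3.70 CPM (3.55 ± 0.70, adjusted p 0.0104, and 0.0612 without E6.0 embryo 1). The epithelial cadherin Cdh1 was at 559.8, 537 and 536 CPM and 628, 573 and 679 CPM (adjusted p 0.223), and Cdh2 was at 12.7, 7.83 and 8.03 CPM and 12.7, 22.004 and 9.72 CPM (adjusted p 0.264). Of 20 laminin, integrin and basement membrane genes 2 fell, beside 2.54% of all genes tested: Dag1 (dystroglycan, a laminin receptor), from 151, 142 and 151 CPM to 86.2, 73.6 and 79.2 CPM, and Nid1 (nidogen), from 6.76, 3.45 and 4.73 CPM to 1.20, 2.19 and 1.17 CPM. Dag1 kept its call with any 1 embryo left out, and Nid1 did not (adjusted p up to 0.143, without E6.0 embryo 1 or 3). Gja1, the gap junction protein connexin 43, rose from 66.0, 67.8 and 71.2 CPM to 183, 203 and 169 CPM (1.44 ± 0.15, adjusted p 7.56e-05).

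In metabolism, the glucose transporters Slc2a1 and Slc2a3 rose, while Pdk1, Egln3, Aldoa and Gpi1 fell. Of 24 glycolysis and hypoxia genes 2 rose and 4 fell, beside 1.89% and 2.54% of all genes tested. Slc2a1 (GLUT1) went from 171, 198 and 205 CPM to 374, 305 and 346 CPM (0.83 ± 0.15, adjusted p 0.00781), and Slc2a3 (GLUT3) from 129.7, 87.0 and 82.7 CPM to 209, 220.4 and 179 CPM (adjusted p 0.0142, and 0.0706 without E5.5 embryo 2). Pdk1, a kinase that restrains pyruvate dehydrogenase, fell from 64.1, 97.9 and 60.01 CPM to 23.6, 19.7 and 30.3 CPM (-1.59 ± 0.21, adjusted p 0.000542). Egln3, a prolyl hydroxylase induced by hypoxia, fell from 45.6, 33.6 and 47.2 CPM to 12.6, 11.7 and 6.71 CPM. The glycolytic enzymes Aldoa and Gpi1 had log2 fold changes of -0.48 and -0.43, and Gpi1 an adjusted p of up to 0.162 (without E6.0 embryo 1). Aldoa overlaps Fam57b and Gpi1 overlaps Gm26762 on the opposite strand, so part of their reads cannot be assigned. Of 24 sterol and fatty acid genes 3 fell, against 2.54% of all genes tested, and none rose. Among the 3 were the transcription factors Srebf1 and Srebf2, with log2 fold changes of -0.85 and -0.56. The adjusted p reached 0.061 for Srebf1 (without E5.5 embryo 1) and 0.128 for Srebf2 (without E6.0 embryo 2). None of the biosynthetic enzymes listed was called. Of the 24 genes 19 had a negative log2 fold change, beside 6792 positive of all 14228 genes tested.

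Among proliferation genes, calls were 1 of 20 in the mitotic list and 2 of 17 in the G1 list, against 4.43% of all genes tested. The mitotic call was Mki67, from 467, 562 and 503 CPM to 766, 777 and 741 CPM (0.58 ± 0.09, adjusted p 0.00152). In the G1 list Mycl, a MYC family factor, rose (0.70, adjusted p 0.00912, and 0.0678 without E6.0 embryo 2). Ccnd3 had a log2 fold change of -0.58 and an adjusted p of 0.0499, which was 0.0556 with DESeq2 size factors and up to 0.213 with an embryo left out (E6.0 embryo 3). By edgeR none of 19 tested p53 and apoptosis genes was called (5 at an unadjusted p below 0.05, 1 by the DESeq2 Wald test, 3 in the 6 embryos alone). Of 88 ribosomal protein genes 6 fell and none rose, and of 77 nuclear oxidative phosphorylation genes 3 fell and none rose, beside 2.54% of all genes tested. A negative log2 fold change was seen in 75 of the 88 and 50 of the 77, beside 6792 positive of all 14228 genes tested. Of 68 clustered histone genes none was called (2 at an unadjusted p below 0.05, 1 by the DESeq2 Wald test, 4 in the 6 embryos alone), and 60 had a positive log2 fold change, beside 6792 of all 14228 genes tested. Ribosomal protein genes have processed copies, so their counts are uncertain.

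Of 16 immediate early genes, which respond to stimuli within minutes, 2 rose, against 1.89% of all genes tested: Klf6, from 16.96, 11.3 and 19.8 CPM to 63.1, 51.4 and 54.7 CPM (1.81 ± 0.32, adjusted p 0.0065), and Btg2, from 1.98, 1.36 and 4.56 CPM to 8.99, 9.16 and 9.43 CPM (adjusted p 0.0363, and 0.132 without E6.0 embryo 2). Jun was at 11.7, 9.92 and 17.7 CPM and 67.3, 70.0 and 53.7 CPM, with no overlap, as in 30.9% of all genes tested, and was not called (adjusted p 0.147, and 4.05e-05 in the fit of the 6 embryos alone, 0.046 by the DESeq2 Wald test and 0.0102 with embryo number as a block). In the ATF4 list of 16 genes 1 was called, a share close to the 4.43% of all genes tested: Ddit3 (CHOP) rose from 0.208, 0.313 and 1.10 CPM to 7.08, 8.38 and 6.03 CPM (3.66 ± 0.61, adjusted p 0.00391). Chac1, of the same list, was at 11.96, 1.77 and 0.423 CPM and 39.7, 26.1 and 18.4 CPM (adjusted p 0.218, and 0.0266 with embryo number as a block). Of 13 tested YAP and TEAD genes 2 rose, against 1.89% of all genes tested. Ctgf rose from 9.88, 8.98 and 17.7 CPM to 38.5, 54.1 and 31.9 CPM (1.76 ± 0.28, adjusted p 0.00292), and Amotl2 rose by 0.57 on the log2 scale (adjusted p 0.0117, but 0.0624 without E5.5 embryo 2). How far the handling of the embryos had a part in these genes was not tested.

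Of 13 tested interferon response and MHC class I genes 1 had a positive log2 fold change, beside 6792 of all 14228 genes tested, and 2 fell, beside 2.54%. Tap1, a peptide transporter, went from 5.202, 7.203 and 6.17 CPM to 0.959, 0.783 and 2.24 CPM (-2.22 ± 0.44, adjusted p 0.0108, and 0.0722 without E6.0 embryo 2), and Bst2 (tetherin) from 28.7, 24.2 and 33.5 CPM to 9.59, 16.4 and 18.1 CPM (adjusted p 0.0285, and 0.123 without E5.5 embryo 3). The list's median was -0.97, against -0.02 over all genes tested. Gsta4, a glutathione transferase, was the 1 call in 12 tested metallothionein and antioxidant genes, beside 4.43% of all genes tested (-0.58, adjusted p 0.0363, and 0.168 without E6.0 embryo 1).

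Visceral endoderm is the tissue that wraps the epiblast. Of its 15 tested markers 1 had a positive log2 fold change, beside 6792 of all 14228 genes tested, and 2 fell, beside 2.54%. The 2 were Hnf4a and Cited1, at 2.39, 2.71 and 2.28 CPM and 2.29, 1.46 and 2.11 CPM at E5.5. Hnf4a was at 0.240, 0.235 and 0.486 CPM at E6.0 (-2.89 ± 0.48, adjusted p 0.00331). Cited1 had at most 3 counts in every E6.0 embryo, at least 6.61-fold lower (adjusted p 0.00551). Cubn was at 321, 583 and 137 CPM in the E5.0 embryos, 24.4, 11.1 and 3.38 CPM at E5.5 and 0.959, 1.25 and 1.36 CPM at E6.0, not called at this step (adjusted p 0.161), but called in the 6 embryos alone (0.0163) and by the DESeq2 Wald test (0.000947). Apob was at 173, 91.3 and 35.5 CPM at E5.0, 17.9, 8.77 and 8.71 CPM at E5.5 and 2.40, 0.626 and 2.43 CPM at E6.0, also not called (adjusted p 0.111), but called in the 6 embryos alone (0.00481), with embryo number as a block (0.000878) and by the DESeq2 Wald test (0.00654). Of 7 tested parietal endoderm markers 1 rose, Fst (3.33), and 1 fell, Srgn, beside 1.89% and 2.54% of all genes tested, and the list's median log2 fold change was -0.25 (-0.32 to -0.15 over the alternatives). Srgn had no count at E6.0 and was at least 3.82-fold lower (adjusted p 0.0072). The part of visceral endoderm RNA in the falls of Sfrp5, Nid1 and Srgn was not tested.

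Sex differed in its balance between the stages, with 2 male embryos of 3 at E5.5 and 1 of 3 at E6.0. Xist, the RNA of the inactive X chromosome, was at 16.5, 0.835 and 646 CPM at E5.5 and 0.600, 876 and 780.0 CPM at E6.0. Tsix, its antisense partner, fell from 34.96, 30.6 and 21.6 CPM to 11.03, 6.42 and 7.97 CPM (-1.78 ± 0.34, adjusted p 0.00913, and 0.0566 without E6.0 embryo 2). The male E6.0 embryo 1 and the female embryos 2 and 3 were all below the lowest E5.5 embryo. The 2 genes overlap by 22889 bases on opposite strands, so reads of the overlap cannot be told apart without strand. With sex as a covariate, chosen after the data were seen, 703 genes were called, of which 568 were among the 631. Of the called genes followed, 6 lost the call in that edgeR fit. Their adjusted p was 0.0579 for Nodal, 0.0679 for Dnmt3b, 0.0612 for Sox11, 0.0601 for Nid1, 0.0519 for Ccnd3 and 0.0632 for Zfp979. Of the followed genes not called, 1 gained a call.

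The last comparison asked whether the step from E5.5 to E6.0 differed from the step before it, from E5.0 to E5.5. Both steps share the E5.5 embryos, so their calls were not set against each other, and the difference was tested in 1 contrast. It was called for 83 of 14228 genes (0.583%), 29 upward (0.204%) and 54 downward (0.38%). Tle3 had turned: it was at 166, 176 and 137 CPM at E5.0, with a log2 fold change of -1.41 in the first step and 1.92 in the second (difference 3.33 ± 0.29, adjusted p 7.91e-05). Gja1, Gas5 (a noncoding host of small nucleolar RNAs) and Fstl1 (a secreted glycoprotein) had the same signs, with -0.54, -0.51 and -0.80 in the first step and 1.44, 1.13 and 1.89 in the second. The contrast tests the difference only, so it does not show a change in the first step by itself. Lef1, a nuclear effector of WNT signalling, had dropped from 273, 321 and 311 CPM at E5.0 to 112, 103 and 117 CPM at E5.5, and was at 113, 108 and 101 CPM at E6.0 (second step -0.05, adjusted p 0.87).

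In the other direction, Dppa5a and Dppa2 fell more steeply in the second step: the log2 fold change was -0.74 and then -3.43 for Dppa5a, and -0.68 and then -4.39 for Dppa2 (adjusted p of the difference 2.37e-05 and 7.91e-05). Mkrn1 had a log2 fold change of 0.20 in the first step and -1.82 in the second (adjusted p of the difference 0.000187). Pdk1 was at 30.8, 29.1 and 31.3 CPM at E5.0, below its E5.5 embryos, and its E6.0 embryos overlapped those of E5.0 (adjusted p of the difference 0.00195). Rex2 and Zfp985 of the zinc finger block were also among the 83, with -0.87 and -1.37 before and -3.70 and -5.16 after. The number of genes called in this contrast was 19 without E5.5 embryo 2 and 160 without E5.0 embryo 1.

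**Figure D5:**
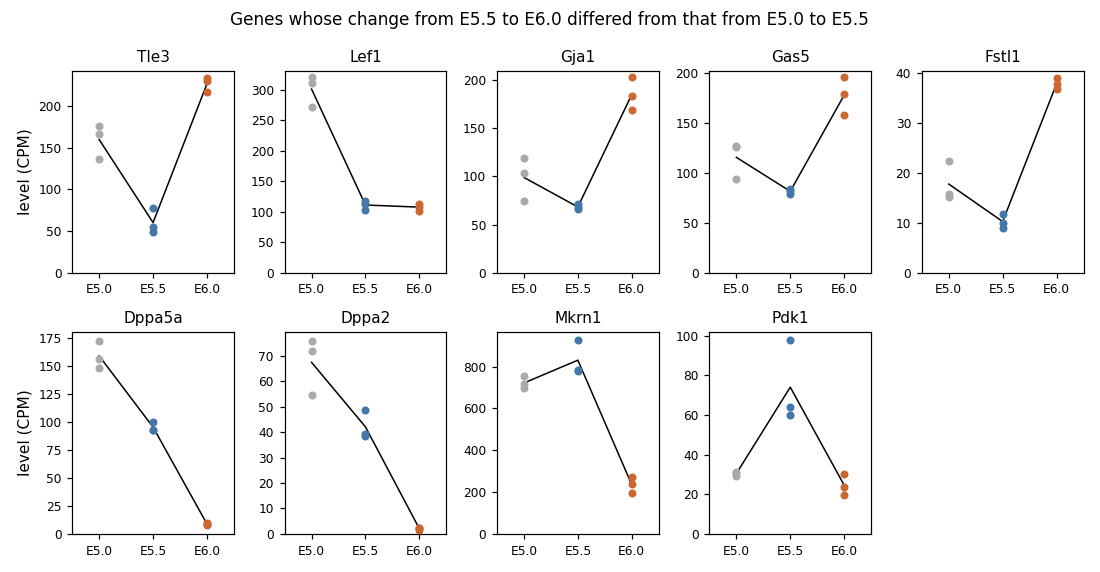
Level (CPM) in each embryo at E5.0, E5.5 and E6.0 for 5 genes upward and 4 downward among those with the smallest p for the difference between steps, points for embryos and a line through the means of 3. The means of Tle3, Gja1, Gas5 and Fstl1 are lowest at E5.5, and those of Mkrn1 and Pdk1 are highest there. The test of the difference does not show a change in the first step by itself.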

How the data were processed

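RNA from single epiblasts was sequenced, and the authors deposited 1 table of whole-number read counts per gene, with no normalization. The submitters' processing notes name Trim Galore, TopHat2 2.1.0, featureCounts 1.5.0 and the genome build mm10, as listed without order or role. Annotation, strand setting and the treatment of reads matching several places are not given in the sources used here. Columns were matched to samples by title.

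Counts of 9 epiblasts (3 each at E5.0, E5.5 and E6.0) were filtered by edgeR's filterByExpr (14228 of 33861 genes kept), scaled by TMM and fitted with edgeR 4.0.16's robust quasi-likelihood test in R 4.3.3, with p-values adjusted by Benjamini-Hochberg over all genes tested. The SE is the log2 fold change divided by the square root of its F statistic. A fold is a lower bound where every embryo of a stage had at most 3 counts, which is 0.235 to 0.546 CPM. Nothing says whether embryos came from separate litters, so p-values measure the spread between these embryos. No pair of libraries agreed within sampling noise (chi-square per degree of freedom of 7.57 or more within a stage). Loci of ribosomal RNA held 26.1% to 27.8% of counts at E5.5 and 22.1% to 27.1% at E6.0.

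Genes named are the 12 per direction with the largest change (adjusted p under 0.05, at least 10 CPM in the higher stage, no overlap, named single genes), the 10 most abundant per direction, 5 per direction for the difference between steps, and any gene of 36 lists and 8 families. Some genes that this rule names are not reported here. Members and lists were chosen with earlier results of these data known. Alternatives were DESeq2 1.42.0 size factors and its Wald test, other filters, ribosomal RNA loci left out, embryo number as a block, the 6 embryos alone, each embryo left out and, chosen after the data were seen, sex as a covariate. Gene positions are from GENCODE M21 and promoters from RefSeq GRCm38.p6.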

Additional observations from a re-analysis of the deposited data

Results flagged for a closer look

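The steps from E5.0 to E5.5 and from E5.5 to E6.0 differed for 83 genes (edgeR quasi-likelihood test of the difference, adjusted over 14228 genes). Of these, 5 upward and 4 downward among those with the smallest p are given by the log2 fold change of the second step minus that of the first. Upward, the difference was 3.33 for Tle3, 1.39 for Lef1, 1.98 for Gja1, 1.63 for Gas5 and 2.68 for Fstl1. Downward, it was -2.70 for Dppa5a, -3.71 for Dppa2, -2.02 for Mkrn1 and -2.88 for Pdk1. Both steps share the E5.5 embryos, so an E5.5 value that is off enters both with opposite signs. The count was 19 without E5.5 embryo 2 and 160 without E5.0 embryo 1.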

How the results depend on the processing

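The 631 calls between E6.0 and E5.5 became 1075 with DESeq2's Wald test (479 higher, 596 lower), 1107 with no filter (525 and 582) and 1445 in the 6 embryos alone (744 and 701), and 631, 614 and 613 of the original calls were among them. Leaving out 1 embryo gave 238 to 878 calls (77 to 419 higher, 161 to 459 lower). The 83 calls between the steps became 326 with the Wald test (167 higher, 159 lower) and 410 with no filter (198 and 212), and 19 to 160 with 1 embryo left out (5 to 57 higher, 14 to 108 lower). None of the 631 genes called between E6.0 and E5.5 changed sign in any setting that tested it. Among genes not called, Otx2 ranged from -0.0485 to 0.107, Lef1 from -0.0923 to 0.0098 and Mixl1 from -0.47 to 3.97 with 1 embryo left out. Otx2 turned to -0.00207 with a 5 CPM filter, to -0.12 with sex as a covariate and to -0.03, -0.02 and -0.0485 without E5.5 embryo 1, E6.0 embryo 2 or E6.0 embryo 3. Lef1 turned to 0.0098 without E5.5 embryo 3 and 0.0021 without E6.0 embryo 3, and Mixl1 to -0.47 without E6.0 embryo 2. The cause was not tested. Of 106 called genes followed, 58 kept the call with any 1 embryo left out.

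With embryo number as a replicate block, 707 genes were called (315 higher, 392 lower), of which 561 were among the 631, and 87 for the difference between steps. Of the called genes followed, 5 lost the call in that edgeR fit. Their adjusted p was 0.0547 for Fst, 0.0644 for Nodal, 0.0612 for Sox11, 0.06 for Kmt2b and 0.0532 for Ccnd3. Of the followed genes not called, 6 gained a call. Deviations of same-numbered E5.5 and E6.0 embryos correlated at 0.127, -0.0693 and 0.0921, and embryo 2 of E5.5 and embryo 3 of E5.5 correlated best with another number, so the numbers were not taken to pair the embryos. Low counts limit the least abundant genes: 3 counts are 0.235 to 0.546 CPM.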

Other observations

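In the same comparison, 2 further gene groups were counted. The 17 tested Platr transcripts, noncoding RNAs named for their association with pluripotency, all had a negative log2 fold change from E5.5 to E6.0 (median -1.26, and -1.34 to -0.78 over the alternatives), beside 6792 positive of all 14228 genes tested, and 1 fell, beside 2.54%. Summed over the 30 listed, the level was 63.2, 96.8 and 116 CPM at E5.5 and 58.6, 29.0 and 74.6 CPM at E6.0. In these sums the 2 stages overlapped. Of 332 tested genes with a Zfp symbol, 5 rose and 21 fell, beside 1.89% and 2.54% of all genes tested. Outside the block on chromosome 4 the numbers were 5 and 10 of 314, and these include Zfp977 (-4.41) and Zfp936 (-3.41) on chromosome 7. Zfp genes share sequence, so reads may be shared among them.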
